A study of Mus musculus with 4 samples.

Results

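The genes described here are 8 transcription factor genes of the astroglial lineage, Sox9, Sox2, Sox8, Nfia, Nfib, Nfix, Zbtb20 and Rorb. They were taken by name from the gene rows of both matrices, and all 8 were found once among 32287 gene features. Gene expression was measured in single tdTomato-positive cells sorted from the spinal cord of Cx30-tdTomato mice. In these mice Cre driven by Cx30 (Gjb6), a connexin of astrocytes, is activated by tamoxifen and switches on tdTomato in cells that use Cx30, ependymal and meningeal cells among them. All mice had received a pool of enhancer AAVs in the blood, so the uninjured animals carried reporter, tamoxifen and viruses as well. The injured library came from 5 mm of cord taken 3 days after a contusion and the uninjured library from the same length of intact cord, and the animals of each condition, 1 or 2 per sex by the design, were pooled. The mice entered the study as adults. With 1 library per condition no test between conditions was possible, and all 95% intervals below are exact intervals of counting error alone. They do not cover differences between animals or libraries.

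SOX factors are HMG-box proteins that bind a short core sequence. SOX9, of the SOXE group with SOX8, is needed for the switch from neuron to glia production in the cord, and SOX2, of the SOXB1 group, is kept on in neural stem cells and in astroglia. NFI factors bind TTGGC motifs and act after SOX9 in astrocyte formation. ZBTB20 is a zinc finger repressor that favours astrocyte over neuron fate, and RORB is an orphan nuclear receptor found in neural progenitors, some neurons and astrocytes. Once astrocytes are mature, many of these factors stay on and mark their enhancers.

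Positions are from GRCm38, and all 8 genes are protein-coding. Sox9 lies on chromosome 11 from 112782224 to 112787760 on the plus strand, Sox2 on chromosome 3 from 34650405 to 34652461 on the plus strand, and Sox8 on chromosome 17 from 25565892 to 25570686 on the minus strand. Nfia lies on chromosome 4 from 97772734 to 98118874 on the plus strand, Nfib on chromosome 4 from 82290173 to 82705750 on the minus strand, and Nfix on chromosome 8 from 84699876 to 84800344 on the minus strand. Zbtb20 lies on chromosome 16 from 42875881 to 43642602 on the plus strand and Rorb on chromosome 19 from 18930605 to 19111196 on the minus strand. Sox2 lies inside Sox2ot and Nfib overlaps Gm11267, both on the same strand, so reads that the counting could assign to either gene of a pair make these rows uncertain.

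The injured library had 879 kept cells with a median of 6816 unique molecular identifiers (UMIs, 1 per captured RNA molecule), and the uninjured library had 4159 cells with a median of 3343. The libraries shared 7 cell barcodes. Clusters were named by markers, and the 5 astrocyte-like clusters held 410 injured and 3066 uninjured cells, in which all 8 astrocyte markers were found in both libraries at a summed 10268 and 11822 counts per 1000000 gene UMIs (CPM). The libraries differed in more than the injury. By Xist and Y-linked genes, 250 injured cells were scored female and 315 male. Only 2 uninjured cells were scored female against 2770 male, although the design names animals of both sexes. The other 314 injured and 1387 uninjured cells were unscored, 211 of them injured astrocyte-like cells. Ratios among cells scored male rest on 126 injured and 2089 uninjured astrocyte-like cells. A male score needs a UMI of a Y-linked gene, so it also depends on depth. In the astrocyte-like cells, mitochondrial genes took 8.33% of UMIs after injury against 6.07%, and genes longer than 100 kb took 21.1% against 34.1%. Most injured astrocyte-like cells (82.2%) were in cluster 1, which held 0.522% of the uninjured ones. Injury, sex makeup, cluster makeup and depth cannot be told apart in this design.

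Sox9 was highest in ependymal-like cells of both libraries. Its level in the injured library was 309 CPM (interval 286 to 333) in astrocyte-like cells, 525 CPM in ependymal-like cells and 31.9 CPM in fibroblast-like cells. It was 11.3 CPM in OPC-like cells (oligodendrocyte precursors), 9.35 CPM in endothelial-like cells and 0.529 CPM, a single UMI, in microglia-like cells. The intervals of the first 3 classes did not overlap one another, whereas the OPC-like interval overlapped those of fibroblast-like and endothelial-like cells. In the uninjured library it was 236 CPM (227 to 246) in astrocyte-like, 543 CPM in ependymal-like and 253 CPM in fibroblast-like cells. The first and last of these intervals overlapped. The fibroblast-like level split by cluster, with 313 CPM in cluster 13, which held 48 uninjured and 0 injured cells, and 161 CPM in the 47 uninjured cells of cluster 8. In cluster 13 Sox2 had 0 UMIs, which allows up to 15.2 CPM, and Rorb had 30.3 CPM, whereas Zbtb20 was at 2137 CPM, Nfia at 530.4, Nfix at 187 and Nfib at 177 CPM.

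Sox2 was at 199 CPM (181 to 218) in injured astrocyte-like cells, 566 CPM in ependymal-like cells and 227 CPM in OPC-like cells. Astrocyte-like and OPC-like intervals overlapped, and the ependymal-like level lay above both. Without injury the values were 260, 852 and 158 CPM, and the OPC-like interval (88.5 to 261) again overlapped the astrocyte-like one. Microglia-like cells had 0 Sox2 UMIs in both libraries, which places them at least 125-fold below astrocyte-like cells in the injured and at least 10.1-fold below in the uninjured library, with a floor of 3 counts over the group.

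Sox8 was the member with the fewest UMIs, and its highest level was outside astrocytes. OPC-like cells had 94.9 CPM (76.5 to 116) in the injured and 148 CPM (80.7 to 248) in the uninjured library, against 24.0 and 60.5 CPM in astrocyte-like cells. Ependymal-like cells, which were high for Sox9 and Sox2, had 2 Sox8 UMIs after injury (1.18 CPM) and 0 without injury, at least 3.20-fold below astrocyte-like cells. Uninjured fibroblast-like cluster 13 reached 131 CPM (85.8 to 192), while cluster 8 had 1 UMI. Per Sox2 UMI there were 0.121 Sox8 UMIs in injured astrocyte-like cells, 0.418 in OPC-like cells and 0.00209 in ependymal-like cells. By these levels, the 3 SOX genes had different orders of the classes within the same cells.

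Nfia was found in every class. In the injured library it was highest in ependymal-like cells (1648 CPM), followed by astrocyte-like (906), OPC-like (688), mural-like (636), fibroblast-like (434), endothelial-like (300) and microglia-like cells (138). The mural-like class held only 13 injured cells, and its interval overlapped both of its neighbours in this order. No other neighbours overlapped. Without injury the order of the first classes was the other way round, with 1372 CPM (1351 to 1394) in astrocyte-like cells and 1003 CPM (853 to 1172) in ependymal-like cells.

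Nfib departed from Nfia in vascular cells. Its levels after injury were 547 CPM in ependymal-like, 505 in endothelial-like, 410 in astrocyte-like and 357 CPM in OPC-like cells, but 155 CPM in fibroblast-like cells, 11.8 CPM in mural-like cells (1 UMI) and 4.23 CPM in microglia-like cells. The ependymal-like and endothelial-like intervals overlapped, as did the astrocyte-like and OPC-like ones. There were 1.68 Nfib UMIs per Nfia UMI in endothelial-like cells (1.42 to 1.99) against 0.452 in astrocyte-like cells (0.418 to 0.489). Without injury the endothelial-like ratio was 1.40 (0.889 to 2.23) and the astrocyte-like ratio 0.476, again without overlap.

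Nfix was not highest in astrocyte-like cells in either library. Ependymal-like cells had 502 CPM and OPC-like cells 373 CPM after injury, against 203 CPM (185 to 223) in astrocyte-like cells. Fibroblast-like cells had 125 CPM and mural-like cells 0 UMIs, which allows up to 35.3 CPM. Without injury OPC-like cells had 559 CPM (419 to 731), ependymal-like cells 486 CPM (383 to 607) and astrocyte-like cells 260 CPM (250.3 to 269). The OPC-like and ependymal-like intervals overlapped, and both lay above the astrocyte-like one.

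Zbtb20 was broad. It reached 2808 CPM in ependymal-like, 2062 CPM in mural-like, 1672 CPM in fibroblast-like, 1387 CPM in astrocyte-like, 1267 CPM in OPC-like and 1064 CPM in endothelial-like cells after injury, and microglia-like cells were the exception with 214 CPM. In this order mural-like and fibroblast-like intervals overlapped, as did astrocyte-like and OPC-like ones. The mural-like level rests on 13 cells. Without injury 4 classes lay close together, with 2296 CPM in fibroblast-like, 2120 in ependymal-like, 2093 in astrocyte-like and 1983 CPM in OPC-like cells, and the ependymal-like and OPC-like intervals both held the astrocyte-like value, whereas the fibroblast-like one (2135 to 2465) lay above it.

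Rorb was the member with the narrowest class pattern. Astrocyte-like cells had 496 CPM (468 to 526) after injury and 847 CPM (830 to 864) without. The next named class with at least 20 cells was ependymal-like in both libraries, with 109 and 101 CPM, and 0 Rorb UMIs in injured endothelial-like cells put them at least 124-fold below astrocyte-like cells. Injured microglia-like cells had 2 Rorb UMIs and uninjured ones 0.

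**Figure D1:**
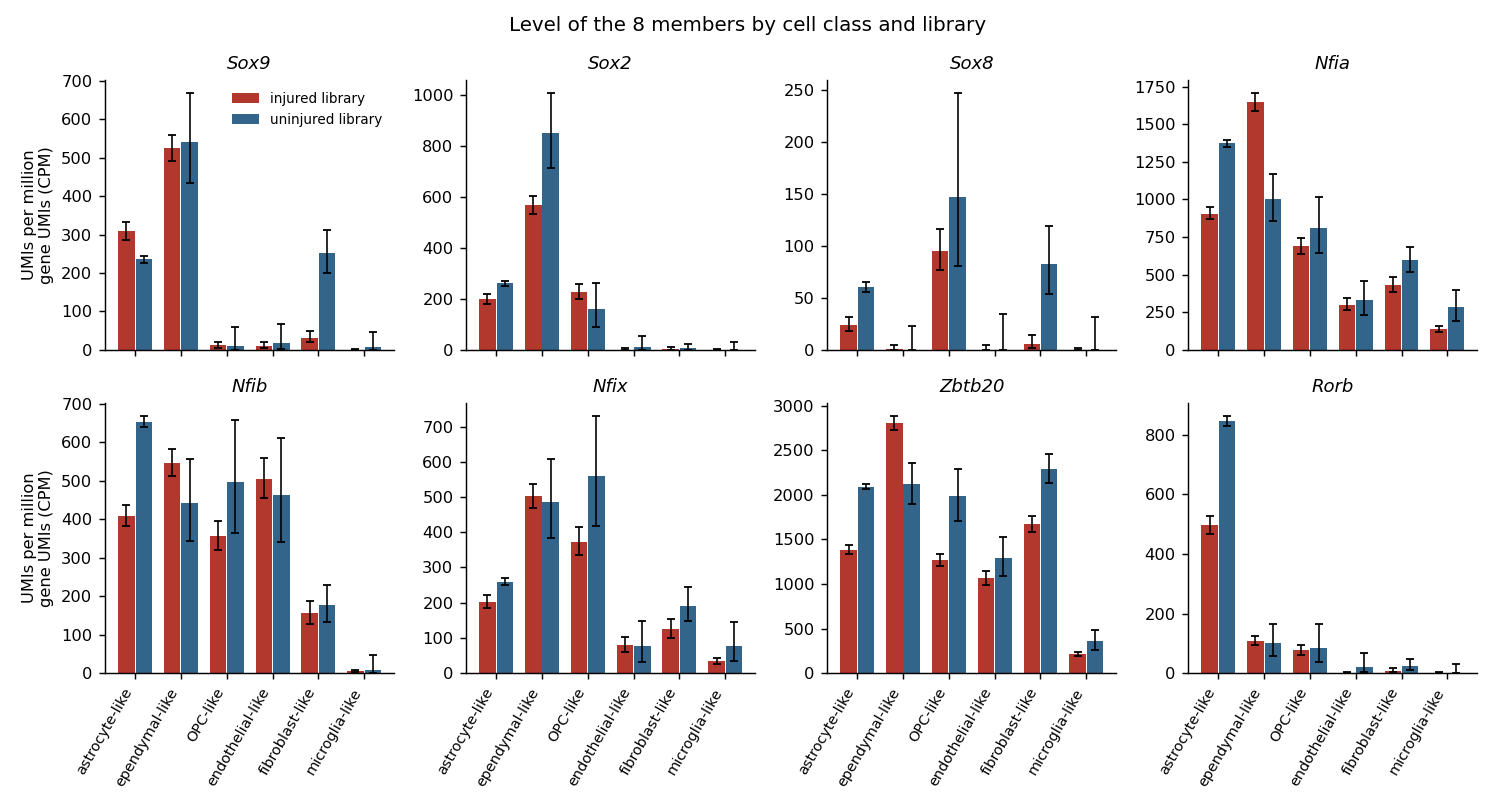
Level of each member in CPM (vertical axis of each panel, from 0) by cell class and library, from summed UMIs, with bars for the 2 libraries and exact Poisson 95% intervals as error lines. Rorb stands at 496 and 847 CPM in astrocyte-like cells and near 100.9 CPM or lower in uninjured ependymal-like, OPC-like and microglia-like cells, while Zbtb20 is above 1000 CPM in most classes and Sox8 is highest in OPC-like cells.

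Against all other named classes of its own library together, the astrocyte-like class was higher by 2-fold or more for Sox9 (log2 ratio 1.01) and Rorb (3.42) in the injured library, 2 of 8 members, where 12.1% of the 10539 genes compared were that much higher and 20.7% that much lower. In the uninjured library 3 of 8 members passed this size, Nfia (1.13), Nfib (1.23) and Rorb (4.26), where 13.8% of 10643 genes were that much higher and 29.2% that much lower. No member was lower by 2-fold in either library. The medians of the members were 0.43 and 0.36 on the log2 scale, beside -0.14 and -0.32 over all genes compared. The Sox9 ratio in the uninjured library was 0.15 (interval -0.07 to 0.38), and Nfix lay at -0.20 in the injured and 0.00 in the uninjured library. The other classes were not the same mix in both libraries, with 437 cells in the injured and 200 in the uninjured one. The injured Sox9 ratio depended on the processing. With 10 in place of 1 CPM added to both sides, or without cells under 1000 UMIs, Rorb alone passed the counted size. With every cell thinned to 1000 UMIs, Sox9 was at 0.23, and the median of the members was -0.0510 in place of 0.43, while Rorb was at 3.52. In this and all later thinned ratios each kept cell weighs the same, whereas summed UMIs give deep cells more weight. Median depths here were 3702 UMIs in astrocyte-like cells and 11699 in the other classes. The part of this weighting in the ratios was not tested.

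The comparison of conditions asked how the lineage factors stood in astrocyte-like cells 3 days after contusion. Of the 8 members, 7 were lower in the injured library and 1, Sox9, was higher. All 8 passed the filter of a mean of 10 CPM over both groups. Sox8 alone was lower by 2-fold or more, where 7.45% of 9423 genes were that much lower, and no member was higher by 2-fold, where 13.1% of genes were. The median log2 ratio of the members was -0.60 beside 0.01 over all genes. With 8 members, a count of 1 is near the share of all genes.

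Sox9 had 309 CPM after injury against 236 CPM without in astrocyte-like cells, a log2 ratio of 0.38 (interval 0.26 to 0.51). This placed it at the 67.5 percentile of all genes. Its excess was 0.51 among cells scored male, whereas thinning every cell to 1000 UMIs gave 0.18. Among cells with a UMI of Aldh1l1, a set that also held cells of other classes, it was 0.47. In the astrocyte-like cells of cluster 4, the cluster that both libraries filled, the injured level was the lower one, with 99.0 against 157 CPM from only 10 injured UMIs (log2 ratio -0.66, interval -1.75 to 0.23), an interval that held 0. The median in that comparison was -0.56 over all genes and -0.28 over genes under 10 kb, the length class of Sox9. The Sox9 interval held both medians. The cells of cluster 4 were unlike in the libraries, with 45.5% mitochondrial UMIs in injured and 11.2% in uninjured cells. Their astrocyte markers summed to 4732 and 8835 CPM.

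Sox2 had 199 against 260 CPM, a log2 ratio of -0.38 (-0.53 to -0.24). This difference was smaller among cells scored male (-0.15), and in cells picked by a UMI of Aldh1l1 the ratio was 0.00435. The Aldh1l1 set reached beyond the astrocyte-like class, with 548 injured Sox2 UMIs against 448 in the class. The part of other classes in the Aldh1l1 ratios was not tested. Sox8 had 24.0 CPM from 54 UMIs against 60.5 CPM from 677 UMIs, a log2 ratio of -1.30 (-1.76 to -0.93). Sox8 lay at the 3.43 percentile of all genes and between -1.63 and -1.17 in the male, Aldh1l1 and thinned cells. The number of Sox2 UMIs per Sox9 UMI was 0.645 (0.571 to 0.727) after injury and 1.10 (1.04 to 1.16) without.

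The 3 NFI genes were lower in injured cells, by unequal amounts. Nfia had 906 against 1372 CPM (log2 ratio -0.60, interval -0.67 to -0.53) and Nfib 410 against 654 CPM (-0.67, interval -0.77 to -0.58). Nfix had 203 against 260 CPM (-0.35, interval -0.50 to -0.21), an interval above those of both other NFI genes. Among cells scored male, the ratios were -0.34 for Nfia, -0.43 for Nfib and -0.34 for Nfix, a narrower range. In cells thinned to 1000 UMIs the range was wider, with -1.01 for Nfia, -1.09 for Nfib and -0.40 for Nfix. Per Nfia UMI there were 0.341 Sox9 UMIs after injury and 0.172 without, without overlap of the intervals.

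Zbtb20 had 1387 against 2093 CPM (log2 ratio -0.59, interval -0.65 to -0.54). Rorb had 496 against 847 CPM (-0.77, interval -0.86 to -0.68). In cells scored male the ratios were -0.35 for Zbtb20 and -0.53 for Rorb, and in thinned cells -0.80 and -0.91. With injured female against injured male astrocyte-like cells, 6 of 8 intervals held 0, and those of Sox2 (-0.34) and Nfib (-0.22) lay just below it.

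**Figure D2:**
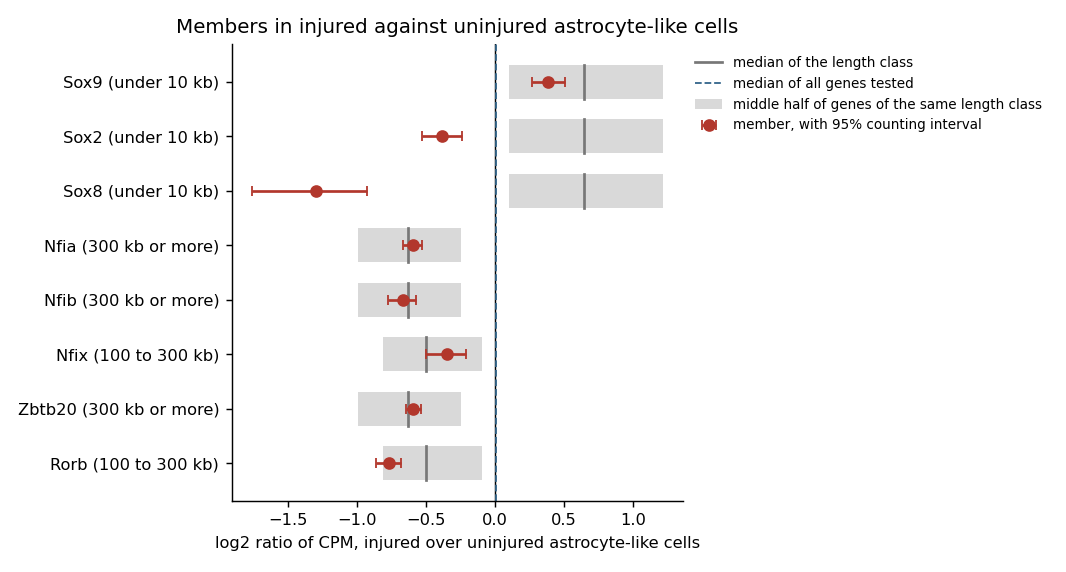
Log2 ratio of CPM (horizontal axis) of injured over uninjured astrocyte-like cells for each member (points, with exact 95% counting intervals), over the median and interquartile range of all genes of the same gene length class (grey) and the median of all genes (dashed line). Sox9 is the only point to the right of 0, and Sox2 and Sox8 lie below the grey range of their class, which starts at 0.10.

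The members also differ in gene length, and the injury ratio of all genes went with length. The median log2 ratio was 0.65 for the 1933 genes under 10 kb and -0.63 for the 377 genes of 300 kb or more, of which 82.2% were below 0. Sox9 (5.54 kb), Sox2 (2.06 kb) and Sox8 (4.80 kb) are short genes. Within the short class Sox9 lay 0.26 below the class median, at its 37.4 percentile, Sox2 at the 12.1 percentile and Sox8 at the 2.07 percentile. Nfia (346 kb), Nfib (416 kb) and Zbtb20 (767 kb) lay at the 52.3, 44.3 and 52.8 percentiles of the longest class. Nfix (100.469 kb) and Rorb (181 kb) lay at the 60.8 and 28.6 percentiles of genes of 100 to 300 kb. Set beside genes of like length, Sox2, Sox8, Rorb and Sox9 were below the class median, by 1.03, 1.94, 0.27 and 0.26, and the other members differed from it by up to 0.15. A like gap of short and long genes was found in microglia-like cells (0.22 and -0.87), OPC-like cells (0.28 and -0.74) and fibroblast-like cells (0.17 and -0.58). The medians were close in endothelial-like cells (-0.15 and -0.26) and in the other order in ependymal-like cells (-0.16 and -0.07). Whether intronic reads were counted is not given in the sources used here, and the part of gene length in the member ratios was not tested.

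Sox8 and Rorb had the lowest ratios of the members, and their promoters (RefSeq, GRCm38.p6, 250 bases before to 50 after the start) are shown for that reason, with capitals marking the NFI motif TTGGC or, on the other strand, GCCAA, and the SOX core ACAAT.
Sox8, chr17:25570637-25570936, minus strand: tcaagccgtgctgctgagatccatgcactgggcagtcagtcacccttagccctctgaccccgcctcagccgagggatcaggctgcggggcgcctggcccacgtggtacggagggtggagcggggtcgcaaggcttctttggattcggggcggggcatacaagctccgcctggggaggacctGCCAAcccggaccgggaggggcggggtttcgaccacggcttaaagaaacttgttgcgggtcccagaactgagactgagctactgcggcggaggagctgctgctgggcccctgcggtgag
Rorb, first listed start, chr19:19001068-19001367, minus strand: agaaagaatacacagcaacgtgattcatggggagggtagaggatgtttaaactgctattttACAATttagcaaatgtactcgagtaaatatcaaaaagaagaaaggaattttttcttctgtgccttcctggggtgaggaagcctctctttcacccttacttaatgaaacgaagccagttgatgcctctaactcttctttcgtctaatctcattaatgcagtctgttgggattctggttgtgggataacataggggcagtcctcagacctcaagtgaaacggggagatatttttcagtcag
Rorb, second listed start, chr19:19111147-19111446, minus strand: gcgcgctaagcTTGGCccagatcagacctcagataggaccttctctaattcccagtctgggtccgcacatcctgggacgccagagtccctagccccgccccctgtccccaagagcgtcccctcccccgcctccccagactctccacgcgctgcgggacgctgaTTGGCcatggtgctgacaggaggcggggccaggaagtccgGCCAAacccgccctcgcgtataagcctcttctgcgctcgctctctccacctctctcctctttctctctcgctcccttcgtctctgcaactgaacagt

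The Sox8 window holds 1 NFI motif. The first Rorb window holds 0 NFI motifs and 1 SOX core and the second 3 NFI motifs, of which 1 overlaps the letters CCAAT or ATTGG of another motif. The table listed 10 promoters for 6 of the 8 members, and the members without an entry were Sox9 and Nfib. Of these 10 windows, 6 held the NFI motif, 3 held the SOX core ACAAT or ATTGT, and 0 held TGAGTCA or TGACTCA, the AP-1 site that dimers of FOS and JUN proteins bind. Over all 32851 promoters of this length, 46.7% held the NFI motif, 31.0% the SOX core and 5.20% the AP-1 site on either strand. A match is a match of letters and does not show binding.

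Within the astrocyte-like class, the members did not vary together. In the uninjured library the 3 SOX genes were higher in clusters 9, 10 and 11 than in the shallower cluster 4, with log2 ratios of 0.66 for Sox9, 0.77 for Sox2 and 0.58 for Sox8. Nfia (-0.39), Nfib (-0.23), Zbtb20 (-0.36) and Rorb (-0.18) were lower there, and Nfix (0.03) had an interval that held 0. The same split stood beside a gene length split, since genes under 10 kb had a median of 0.72 and genes of 300 kb or more a median of -0.29 in this comparison. Sox2 was at 365 CPM (344 to 387) in cluster 9 and 162 CPM (144 to 182) in cluster 4. Nfia went the other way, from 1067 CPM in cluster 9 through 1279 in cluster 10 and 1486 in cluster 11 to 1718 CPM in cluster 4, with no overlap of neighbouring intervals.

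Injured cells of cluster 1 had 319 CPM of Sox9 against 99.0 CPM in injured cells of cluster 4, and 206 against 49.5 CPM of Sox2. These log2 ratios of 1.68 and 2.04 stand beside a median of 0.67 over all genes and 2.04 over genes under 10 kb, the length class of both. Sox8 had 48 UMIs in cluster 1 and 0 in cluster 4, which allows up to 29.7 CPM there. Cluster 4 injured cells had a median of 1606 UMIs and 45.5% mitochondrial UMIs. When injured cells of cluster 1 alone were set against uninjured cells of clusters 9, 10 and 11, the 8 ratios kept their signs, with Sox9 at 0.35, Sox8 at -1.42 and a median of -0.60. Injured cells with a UMI of Lcn2 or Timp1, genes of the reactive state, had a median of 4838 UMIs against 2731 in those without. They had more Sox9 (341 against 264 CPM, log2 ratio 0.37, interval 0.14 to 0.60) and less Zbtb20 (-0.18), while the other 6 intervals held 0. In this comparison the median was 0.18 over genes under 10 kb, the length class of Sox9. It was -0.27 over genes of 300 kb or more, the length class of Zbtb20, which lay above it.

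**Figure D3:**
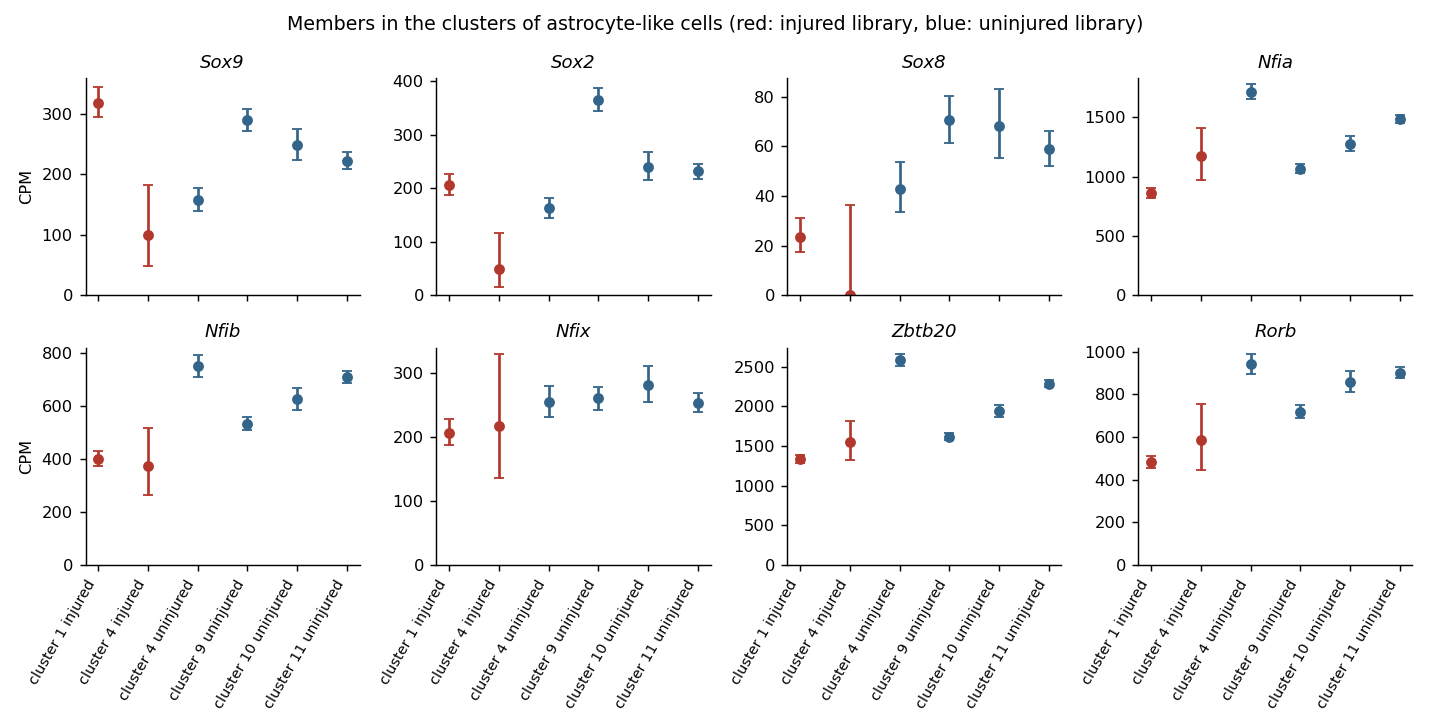
Level of each member in CPM (vertical axis of each panel) in the astrocyte-like clusters of the injured library (red) and the uninjured library (blue), with exact Poisson 95% intervals. Among uninjured cells Sox2 goes from 162 CPM in cluster 4 to 365 CPM in cluster 9, whereas Nfia goes from 1718 to 1067 CPM.

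The share of astrocyte-like cells with at least 1 UMI was above 90% only for Nfia and Zbtb20, and only without injury. For Zbtb20 it was 73.7% of 410 injured and 97.2% of 3066 uninjured cells. For Nfia it was 67.8% and 93.4%, for Nfib 59.5% and 80.7%, and for Rorb 55.9% and 82.9%. In percentage points, though not as a ratio for Sox8, the SOX genes and Nfix differed less. The shares were 53.2% and 49.5% for Sox9, 42.9% and 52.3% for Sox2, 10.7% and 18.3% for Sox8, and 47.3% and 54.7% for Nfix. Median depths were 3702 and 3261.5 UMIs.

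Thinned to 1000 UMIs per cell, with 35 injured and 67 uninjured cells left out as shallower, the shares were 39.5% and 70.3% for Nfia, 55.7% and 83.8% for Zbtb20, 23.7% and 46.3% for Nfib, and 31.2% and 52.9% for Rorb. Sox9 had 22.4% (18.3 to 27.0) and 19.2% (17.8 to 20.7), which overlapped, and Sox2 had 16.8% and 21.0%. Sox8 had 1.87% and 5.64%, and Nfix 17.3% and 22.3%. In microglia-like cells, which are not astroglial, the thinned share was 0% of 121 injured cells for Sox9, Sox2, Sox8, Nfib and Rorb. It was 14.9% for Nfia, 19.0% for Zbtb20 and 5.79% for Nfix. In microglia-like cells there were 0.00383 Sox9 UMIs per Nfia UMI after injury, against 0.341 in astrocyte-like cells, and 0.0303 (0.000745 to 0.181) without injury from a single Sox9 UMI, an interval that held the 0.172 of astrocyte-like cells. The parts of free RNA and of expression by microglia themselves in these shares were not tested.

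After thinning, 17.6% of 375 injured astrocyte-like cells had no UMI of any of the 8 members, against 0.967% of 2999 uninjured cells. The share was 45.7% in the injured cells of cluster 4 and 14.5% in those of cluster 1, against 0.987% in uninjured cells of cluster 4. The 66 injured cells with none of the members had a median of 2.5 astrocyte marker UMIs per 1000, against 10 in the other 309 injured cells, and 31.8% of them were in cluster 4. The 29 uninjured cells with none had a median of 12. The injured astrocyte-like class held cells low in both the members and the astrocyte markers, and their part in the lower member levels was not tested. In injured cells of the class, the microglia markers summed to 65.3 CPM with 2 of 10 at 0 (Csf1r and Tmem119), against 9.65 CPM without injury, and the neuron markers to 218 CPM against 101 CPM, of which Stmn2 alone made 164 and 16.6 CPM. The ependymal markers summed to 136 CPM with 2 of 8 at 0 (Ccdc153 and Tmem212), against 41.7 CPM with none at 0 without injury. Ependymal-like cells had the highest Sox9 level of the classes, and the part of the ependymal markers in the higher Sox9 level of injured astrocyte-like cells was not tested.

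**Figure D4:**
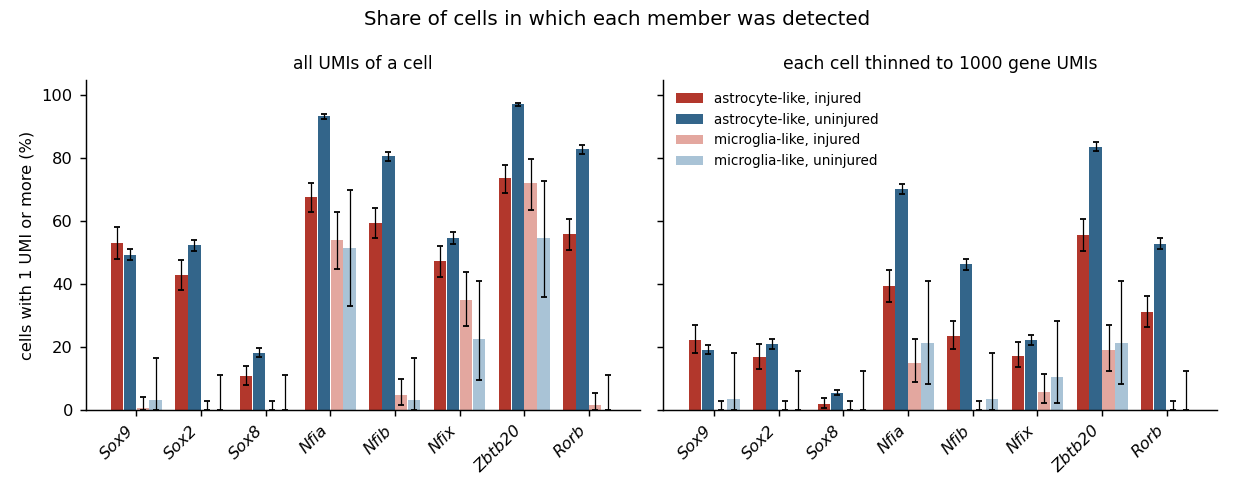
Share of cells with 1 UMI or more of each member (vertical axis, percent, from 0) in astrocyte-like and microglia-like cells of both libraries, for all UMIs and after thinning to 1000 UMIs per cell, with exact Clopper-Pearson 95% intervals. Nfia goes from 70.3% to 39.5% between uninjured and injured astrocyte-like cells after thinning, while the intervals of Sox9 overlap.

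In 4 of the 5 other classes compared, every member whose interval lay off 0 was lower after injury, and the ependymal-like class was the exception. Ependymal-like cells of the injured library (144 cells, against 31) had more Nfia, with 1648 against 1003 CPM (log2 ratio 0.72, interval 0.49 to 0.96), and more Zbtb20 (0.41, interval 0.25 to 0.57), but less Sox2 (-0.59). The other 5 intervals there held 0, and the median over all genes was -0.17. Fibroblast-like cells (43 against 95) had 5 members lower and 0 higher by their intervals, Sox9 (31.9 against 253 CPM), Sox8 (5.55 against 82.2 CPM), Nfix (-0.62), Nfia (-0.46) and Zbtb20 (-0.46), beside a median of -0.02 over all genes. Within cluster 8 alone Sox9 was still lower, with 31.9 against 161 CPM (interval of the log2 ratio -3.25 to -1.41), in cells with a median of 11336 UMIs against 2457. Sox8 there had 4 UMIs after injury and 1 without (5.55 against 7.66 CPM). Of the 27 Sox8 UMIs of uninjured fibroblast-like cells, 26 were in cluster 13, which held 0 injured cells. In cluster 8, 3 intervals lay below 0 and 5 held 0. OPC-like cells (41 against 14) had less Zbtb20 (-0.65), Nfix (-0.58) and Nfib (-0.47), with the other 5 intervals holding 0 and a median of -0.03 over all genes. Microglia-like cells (126 against 31) had less Nfia (138 against 282 CPM, -1.03) and Zbtb20 (214 against 359 CPM, -0.74), beside -0.18 over all genes. Endothelial-like cells (70 against 26) had less Zbtb20 (-0.28, interval -0.54 to -0.01), and Rorb had 0 against 2 UMIs, beside -0.15 over all genes. Nfia, Nfib and Zbtb20 belong to the genes of 300 kb or more. The medians of that length class were -0.58 in fibroblast-like, -0.74 in OPC-like, -0.87 in microglia-like and -0.26 in endothelial-like cells. Of the lower ratios given here for these 3 genes, only microglia-like Nfia and endothelial-like Zbtb20 lay below the median of their length class.

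The other genes of these families were counted in the same comparison of injured with uninjured astrocyte-like cells, and beside them stand the shares of all genes past 2-fold given above. Of 14 other SOX genes, 7 passed the level of a mean of 10 CPM. Of these, Sox4 (log2 ratio 1.05) and Sox11 (1.86), SOXC genes of immature neural cells, were higher by 2-fold or more, and Sox1 (-2.02), a SOXB1 gene like Sox2, was lower. Sox1 was at 13.3 CPM after injury and 57.2 CPM without. Sox5 (-0.25), Sox6 (-0.63), Sox13 (-0.97) and Sox21 (-0.09) lay between, and the median of the 7 was -0.25. Sox10, of the SOXE group with Sox8 and Sox9 and a gene of oligodendrocyte lineage cells, did not pass the level, with 16 and 3 UMIs. Nfic, the remaining NFI gene, was level with 71.1 against 66.9 CPM (0.09, interval -0.17 to 0.34), and Rora, the relative of Rorb, was lower with 1110 against 3104 CPM (-1.48).

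Of 9 other transcription factors of the astroglial lineage or its progenitors, 7 passed the level, none was 2-fold higher and 3 were 2-fold lower. These were Olig2 (51.6 against 104 CPM) and the SHH pathway effectors Gli2 (-1.27) and Gli3 (-1.29). Rfx4 was at -0.69 and Hopx at 0.93. Of 6 astroglial genes described as targets of SOX9 or NFI factors, 5 passed the level, 2 were 2-fold higher and 0 lower. Gfap, the intermediate filament gene of reactive astrocytes, had 2710 against 62.6 CPM (5.41), and Fabp7, a lipid binding protein of radial glia, had 610 against 141 CPM (2.11). The others were Slc1a3 (0.12), Mmd2 (0.06) and Zcchc24 (-0.53). These lists were chosen with earlier results of these data known and are described by their counts alone.

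IREN5 is an enhancer that the study changed at sites of the factors described here, and the feature M5 carries the same number, which is the only ground for taking them as 1 element. The sequences below are stretches of 2 synthetic variants of IREN5 from the supplementary list, in which either the AP-1 sites (no_AP1) or the sites of astrocyte factors (no_astrocyteTFs) were changed, and they show where the NFI and SOX motifs lie. The variants themselves were not in this viral pool. Capitals mark the NFI motif (GCCAA or TTGGC), the SOX core (ACAAT) or the AP-1 site (TGAGTCA), and positions count from 1 at the start of the listed sequence.
no_AP1, 153 to 179: cccctttgagtGCCAAgagatgaatag
no_astrocyteTFs, 153 to 179: cccctttgcatgagaggacatgaatag
no_AP1, 291 to 325: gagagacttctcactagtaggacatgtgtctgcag
no_astrocyteTFs, 291 to 325: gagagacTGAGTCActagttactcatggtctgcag
no_AP1, 321 to 347: tgcagtgggcaGCCAAaggctatctag
no_astrocyteTFs, 321 to 347: tgcagtggcgagacaaggcctatctag
no_AP1, 351 to 377: caagaatgattTTGGCctcattcaaaa
no_astrocyteTFs, 351 to 377: caagaatgtttcgtcctagattcaaaa
no_AP1, 379 to 399: tagatgctgaACAATatactc
no_astrocyteTFs, 379 to 399: tagatgctattacatgaaact

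Only the first 399 bases of each variant were at hand, and the last block ends at this cut. Motifs beyond it were not counted. Over these 399 bases, the variants differed at 48 positions in 5 blocks, all shown. The AP-1 count takes exact matches alone, whereas the model of the paper places tandem AP-1 motifs in IREN5. The variant without AP-1 sites kept 5 NFI motifs and 2 SOX cores and had 0 AP-1 sites, and the variant without astrocyte factor sites kept 2 NFI motifs, 1 SOX core and 1 AP-1 site. The motifs that only the first held began at positions 164, 332 and 362 for NFI and 389 for SOX, and the AP-1 site of the second began at 298.

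M5 barcodes were found in 136 of 410 astrocyte-like cells after injury and in 0 of 3066 without, which allows a share of up to 0.0978%. The paper reports that viruses packaged as a pool held a large share of barcodes joined to the wrong enhancer. It also reports that correct pairs had a higher chance of being detected. An M5 UMI may therefore come from a virus with a different enhancer. Injured cells with an M5 UMI had a median of 6829.5 gene UMIs against 2811.5 in those without, and 94.1% against 76.3% of them were in cluster 1. Cells with M5 had more Rorb (572 against 414 CPM, log2 ratio 0.47), Nfia (1009 against 793 CPM, 0.35) and Nfib (456 against 359 CPM, 0.35). Sox2 (0.29), Sox9 (0.23) and Zbtb20 (0.20) had intervals above 0 as well. Sox8 was lower, with 16.1 CPM from 19 UMIs against 32.6 CPM from 35 UMIs, and Nfix was at 203 CPM in both. The median of the members was 0.26 beside 0.08 over all genes. Depth went with the M5 call. With genes and barcodes thinned by the same factor in each cell, the median was -0.27, and Sox9 was at -0.40, Sox2 at -0.32, Nfib at -0.22 and Rorb at -0.33, from 6 to 13 UMIs in cells with M5. No order of the members with the M5 call is read from these values.

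Across the 11 groups of class and library with at least 20 cells, the genes most like Rorb in log2(CPM + 1) were Hepacam, an astrocyte adhesion gene (Pearson r 0.99), Bmpr1b (0.98) and Trim9 (0.98), among 10857 genes. For Sox9 they were Fxyd1, Ehbp1 and Pde9a (0.93 to 0.94), for Sox2 Mapk10, Epha5 and Rims2 (0.97 to 0.98), and for Sox8 Acat1, 1700047M11Rik and 2810468N07Rik (0.94 to 0.95). For Nfia they were Magi2, Ehbp1 and Erbb4 (0.94 to 0.96), for Nfib Prnp, Pik3ip1 and Nckap1 (0.96), and for Nfix Cplane1, Tmem255a and Zfp612 (0.96 to 0.97). For Zbtb20 they were Ube2e2, Mir100hg and Hoxb6 (0.95 to 0.97). Among the members, Nfia and Nfix were most alike (0.93), followed by Sox2 and Nfix (0.91) and Sox2 and Nfia (0.91), while Sox8 had the lowest values with every other member (0.34 to 0.60). These are descriptions over groups that share a library and its free RNA, over 6 classes of the injured and 5 of the uninjured library. OPC-like cells entered from the injured library alone.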

How the data were processed

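Transcripts and enhancer barcodes of each sorted cell were read from 1 library pair per condition. The authors deposited raw UMI counts per feature and cell, called as cells but not normalised. The file headers name Cell Ranger 7.1.0, and the submitters' processing notes 8.0.1 and mm10. Gene positions came from GENCODE on GRCm38 by identifier, with 32235 of 32285 genes matched.

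Cells between 500 and 50000 gene UMIs were kept, 879 of 919 injured and 4159 of 4159 uninjured. After scaling to 10000 per cell and log transformation, 2000 variable genes without the 8 members, 15 principal components, 15 neighbours and Leiden resolution 0.5 gave 14 clusters (scanpy 1.11.5, igraph 0.11.9, Python 3.11.15). A cluster took the name of the class with the highest mean marker level (above 0.2), provided that 3 or more of these markers were seen in 10% or more of the cells and that the 10 top genes by fold did not hold more markers of a different class. The naming rule was written once the matrices had been opened, and it was revised once. It named 12 clusters in 7 classes and left 2 unnamed. These names are rebuilt and may differ from those of the study. Doublets were not removed.

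UMIs were summed per class and library and given as CPM of gene UMIs. Ratios are log2((CPM + 1)/(CPM + 1)) with exact conditional binomial 95% intervals of the ratio without the added 1, levels have exact Poisson and shares exact Clopper-Pearson intervals, and a count of 0 allows up to 3 counts over the group. Genes with a mean of 10 CPM or more over both groups were compared. No p-values were computed. Ratios were tested on simulated data, and promoters came from RefSeq (GRCm38.p6). The named genes were the 8 members in all classes, the 3 genes most like each over groups of at least 20 cells, and 4 lists of related genes. The members and lists were chosen with earlier results of these data known. Alternatives changed the added CPM, cell and gene filters, resolution, scaling, sex, astrocyte choice, doublets and depth.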

Additional observations from a re-analysis of the deposited data

Results flagged for a closer look

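All 8 members had UMIs in the 2 clusters that were left unnamed because neuron markers stood among their leading genes. These clusters are outside the comparisons above (32 injured and 893 uninjured cells, with 28.4% and 10.3% mitochondrial UMIs). Astrocyte was the best-scoring class of both. In the uninjured library their astrocyte markers summed to 12503 CPM and neuron markers to 720 CPM, beside 11822 and 101 CPM in astrocyte-like cells. After injury the sums were 3338 and 4116 CPM, beside 10268 and 218 CPM. Cluster 5, with 606 of these uninjured cells, had astrocyte markers at 13118 CPM without injury, and at 10589 CPM in its 9 injured cells. In the injured library the member levels in the unnamed clusters were 49.9 CPM for Sox9, 164 for Sox2, 21.4 for Sox8, 421 for Nfia, 136 for Nfib, 243 for Nfix, 1320 for Zbtb20 and 171 CPM for Rorb. In the uninjured library they were 216 CPM for Sox9, 233 for Sox2, 52.8 for Sox8, 962 for Nfia, 521 for Nfib, 287 for Nfix, 1554 for Zbtb20 and 678 CPM for Rorb. The uninjured ratio of 0.705 Rorb UMIs per Nfia UMI was above the 0.617 of uninjured astrocyte-like cells, without overlap of the intervals. In cluster 7, led by Snap25 and Nefl, injured cells had 1 Sox9 UMI (9.58 CPM) and uninjured cells 161 CPM. The cells of this cluster were unlike in the libraries, with astrocyte markers at a summed 853 and 10702 CPM and neuron markers at 5431 and 1594 CPM.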

How the results depend on the processing

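Cells scored male alone, cells picked by Aldh1l1, thinning to 1000 UMIs and cluster 4 alone moved the members' median injury ratio of -0.60 to -0.34, -0.31, -0.85 and -0.71 (-0.68 with Sox8, at 0 UMIs there, at its bound). The other 13 of 17 alternatives moved it by less than the median counting error of a member, and no member was 2-fold higher under any of the 17. Among the 13, changes of the gene filter or of the fold counted could not alter a member ratio. Allowing the members among the clustering genes gave the same UMIs. Such settings say nothing on how stable the median is. The median of all genes was -0.56 in cluster 4 alone, against 0.01. The count lower, 1 beside 7.45% of all genes, was 3 with thinning beside 16.2%, 5 at 1.5-fold beside 20.9%, and 2 in cluster 4 alone beside 32.1%. The Aldh1l1 set, which also held cells of other classes, put Sox2 at 0.00435, and Sox9 was at -0.66 in cluster 4 alone. Of 136 single injury ratios, which include the settings that could not alter them, 2 changed sign and 20 moved.

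Against other classes of the injured library, the median of 0.43 was 0.79 with no filter on cells and -0.0510 with thinning. The count higher, 2, was 1 with 10 CPM added, with at least 1000 UMIs, without the highest 5% of Scrublet scores, with thinning, and with unnamed clusters counted as astrocyte-like. Nfix was at 0.13 with no filter on cells and 0.16 with Aldh1l1, and Nfia at -0.12 with thinning. Among uninjured cells the median of 0.36 was 0.67 under median ratio scaling and 0.65 with thinning. Median ratio scaling takes the median of all genes, -0.14 and -0.32 in these 2 comparisons, towards 0.

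With M5, Zbtb20 was at -0.13 in cells scored male, and Sox9 at -0.0299 with Aldh1l1 and -0.29 with gene UMIs thinned. With genes and barcodes thinned by the same factor, the median was -0.27, Sox9 -0.40, Sox2 -0.32, Nfib -0.22 and Rorb -0.33.

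The median share of the members, 54.5% injured and 67.7% uninjured, was 74.2% and 72.0% in cells scored male, 68.4% and 73.5% with Aldh1l1, 23.1% and 34.3% with thinning, 36.3% and 40.6% when 2 UMIs were needed, and 31.5% and 57.1% in cluster 4 alone. The uninjured share was 69.4% with at least 1000 UMIs and 71.6% without cluster 4. The causes were not tested.

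No paired analysis was possible because there is 1 library a condition, and no replicate could be left out. The choices on cluster 4, on unnamed clusters and on thinning barcodes were made after seeing the data. Depth limits Sox8 most, with 54 UMIs in injured astrocyte-like cells.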
